A study of Mus musculus with 4 samples.

Results

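Mitochondrial ribosomal protein genes, named Mrpl or Mrps and a number, encode the protein subunits of the ribosome that works inside mitochondria. They were taken by name from the protein-coding genes of GENCODE vM1, which gave 77 members among 22367 genes. The chromatin at their promoters was compared between activated B cells of PA1-knockout (PA1-KO) and wild-type (PA1-WT) mice, with 1 H3K4 chromatin immunoprecipitation sequencing (ChIP-seq) library per genotype. The series holds 4 samples, of which these 2 were used. The other 2, from cells given LPS with dextran, were not analysed here.

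Both libraries came from splenic B cells of mice aged 6 to 14 weeks, purified by removing CD43-bearing cells and kept in culture for 2 days. Every culture received LPS at 25 µg/ml, with either anti-IgD-dextran at 2.5 ng/ml or IL-4 at 5 ng/ml, and the labels do not say which of these additions was used for these samples. The labels also do not give the mouse strain, the part of PA1 that was deleted, the Cre line if one was used, or the methylation state that the H3K4 antibody recognised. PA1 works with PTIP in the complex built around the H3K4 methyltransferases MLL3 and MLL4. The series asks how histone modifications in activated B cells depend on it.

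The mitochondrial ribosome translates only the few proteins encoded by mitochondrial DNA, all of them subunits of the respiratory chain and ATP synthase. Its own proteins are all encoded in the nucleus, made in the cytosol and imported. Some of them have counterparts in the bacterial ribosome, and others are found only in mitochondria. Activated B cells grow and divide rapidly and build new mitochondria as they do so. Methylated H3K4 flanks the start sites of active genes, and many genes for mitochondrial proteins start close to a neighbour read from the opposite strand.

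The PA1-KO library held 5259995 nuclear reads and the PA1-WT library 5539475. Reads were counted within 1 kb of 1 transcription start site (TSS) per gene, the annotated site with the most reads, and levels are reads per 1000000 nuclear reads after scaling the libraries to each other (normalized RPM). The targeted gene, PA1 (2900092E17Rik in the annotation), had 114 reads in the PA1-KO library and 261 in the PA1-WT library, 22.6 against 45.3 normalized RPM. All 8 B cell marker promoters carried signal, with 376 to 570 reads in the PA1-KO library and 385 to 585 in the PA1-WT library. Of 10 T and NK cell markers only Lck reached 50 reads in both libraries combined, while Cd3e had 1 PA1-KO read and 0 PA1-WT reads. Among 8 myeloid markers 3 reached that minimum, led by Cd14 with 118 PA1-KO and 171 PA1-WT reads, and Csf1r had none in either library. Among 8 erythroid and stromal markers 5 did, led by Pecam1 with 389 PA1-KO and 352 PA1-WT reads. Each genotype has a single library, so no replicate check or test was possible, and each 95% interval below covers counting error only and compares these 2 libraries.

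The promoters of 5 members show the range of arrangements found in the set. Each line gives 250 bases before to 49 after the TSS on the strand of the gene named, read from NCBIM37, the assembly that mm9 also is. Capitals mark matches to the motifs described further on. Mrpl46 (chr7:85927903-85928202, minus strand) is shown because it shares this DNA with Mrps11, another member, whose start lies 53 bp away on the opposite strand. Mrps12 (chr7:29526790-29527089, minus strand) is shown because its neighbour at 171 bp is Sars2, the seryl-tRNA synthetase of mitochondria. Mrpl18 (chr17:13109019-13109318, minus strand) had the most reads of any member, and its neighbour at 127 bp is Tcp1, a subunit of the cytosolic chaperonin. Mrpl45 (chr11:97176972-97177271, plus strand) and Mrpl14 (chr17:45823021-45823320, plus strand) had the highest and the lowest ratio of PA1-KO to PA1-WT reads.
Mrpl46 and Mrps11: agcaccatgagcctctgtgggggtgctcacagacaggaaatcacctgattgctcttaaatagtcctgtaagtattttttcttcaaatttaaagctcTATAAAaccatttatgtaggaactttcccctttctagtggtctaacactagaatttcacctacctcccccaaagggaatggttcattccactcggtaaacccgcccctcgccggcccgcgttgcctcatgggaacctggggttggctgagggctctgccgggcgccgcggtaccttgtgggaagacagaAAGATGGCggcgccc
Mrps12: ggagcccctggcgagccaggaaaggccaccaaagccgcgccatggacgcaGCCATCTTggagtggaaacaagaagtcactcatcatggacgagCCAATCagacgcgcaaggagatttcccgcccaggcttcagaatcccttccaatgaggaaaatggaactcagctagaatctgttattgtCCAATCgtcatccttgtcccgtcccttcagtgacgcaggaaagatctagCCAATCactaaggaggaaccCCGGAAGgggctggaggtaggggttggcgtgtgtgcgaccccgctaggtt
Mrpl18: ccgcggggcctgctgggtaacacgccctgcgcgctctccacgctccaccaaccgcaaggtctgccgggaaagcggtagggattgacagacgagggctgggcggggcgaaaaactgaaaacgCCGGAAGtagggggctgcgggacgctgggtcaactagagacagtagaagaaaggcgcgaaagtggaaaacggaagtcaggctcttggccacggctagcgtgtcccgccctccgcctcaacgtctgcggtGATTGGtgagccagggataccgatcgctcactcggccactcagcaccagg
Mrpl45: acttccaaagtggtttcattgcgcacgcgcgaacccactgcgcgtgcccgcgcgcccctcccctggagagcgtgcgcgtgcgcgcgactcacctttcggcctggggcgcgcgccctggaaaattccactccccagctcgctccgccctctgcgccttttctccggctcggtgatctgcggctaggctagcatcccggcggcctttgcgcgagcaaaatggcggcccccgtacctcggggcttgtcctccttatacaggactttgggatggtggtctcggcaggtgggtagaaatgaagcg
Mrpl14: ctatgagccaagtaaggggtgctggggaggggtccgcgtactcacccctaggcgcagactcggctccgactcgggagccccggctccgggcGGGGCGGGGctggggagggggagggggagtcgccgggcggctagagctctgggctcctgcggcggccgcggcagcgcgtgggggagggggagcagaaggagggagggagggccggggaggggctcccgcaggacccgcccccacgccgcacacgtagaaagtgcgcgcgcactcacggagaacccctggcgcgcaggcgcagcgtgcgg

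Almost every member promoter carried H3K4 signal in both libraries. Of the 77 members, 76 had 50 or more reads in both libraries combined and were compared, as were 12186 of the 22367 protein-coding genes. The exception was Mrps36-ps1 on chromosome 17, listed as protein-coding in GENCODE vM1 but named as a pseudogene in the RefSeq gene table, with 0 PA1-KO reads and 1 PA1-WT read. The 76 promoters had 113 to 501 reads in the PA1-KO library (median 257.5) and 100 to 534 in the PA1-WT library (median 305). Their levels ran from 22.4 to 99.2 normalized RPM in the PA1-KO library (median 51.0) and from 17.3 to 92.6 in the PA1-WT library (median 52.9). All tested promoters had medians of 42.6 normalized RPM in the PA1-KO library and 42.2 in the PA1-WT library.

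The set therefore sat in the upper part of the range of tested promoters without reaching its top. The median member ranked at the 64.9th percentile of level, and the 76 members ranged from percentile 18.6 to 99.2. When all tested promoters were divided into 4 equal groups by level, the lowest group held 1 member and the next 3 held 22, 24 and 29. Signal was also narrow. Of the reads within 2 kb of the TSS, a median of 94.7% lay within 1 kb at members, against 88.2% at all tested promoters. This was not particular to the members. The share was 95.8% at mitoribosome assembly factors, 95.3% at mitochondrial translation factors and 91.8% at mitochondrial aminoacyl-tRNA synthetases. It was 91.1% at oxidative phosphorylation genes and 77.7% at cytosolic ribosomal protein genes. The order of members was much the same in both libraries (Spearman's rho 0.93 over 76 promoters that share the same 2 libraries).

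**Figure D1:**
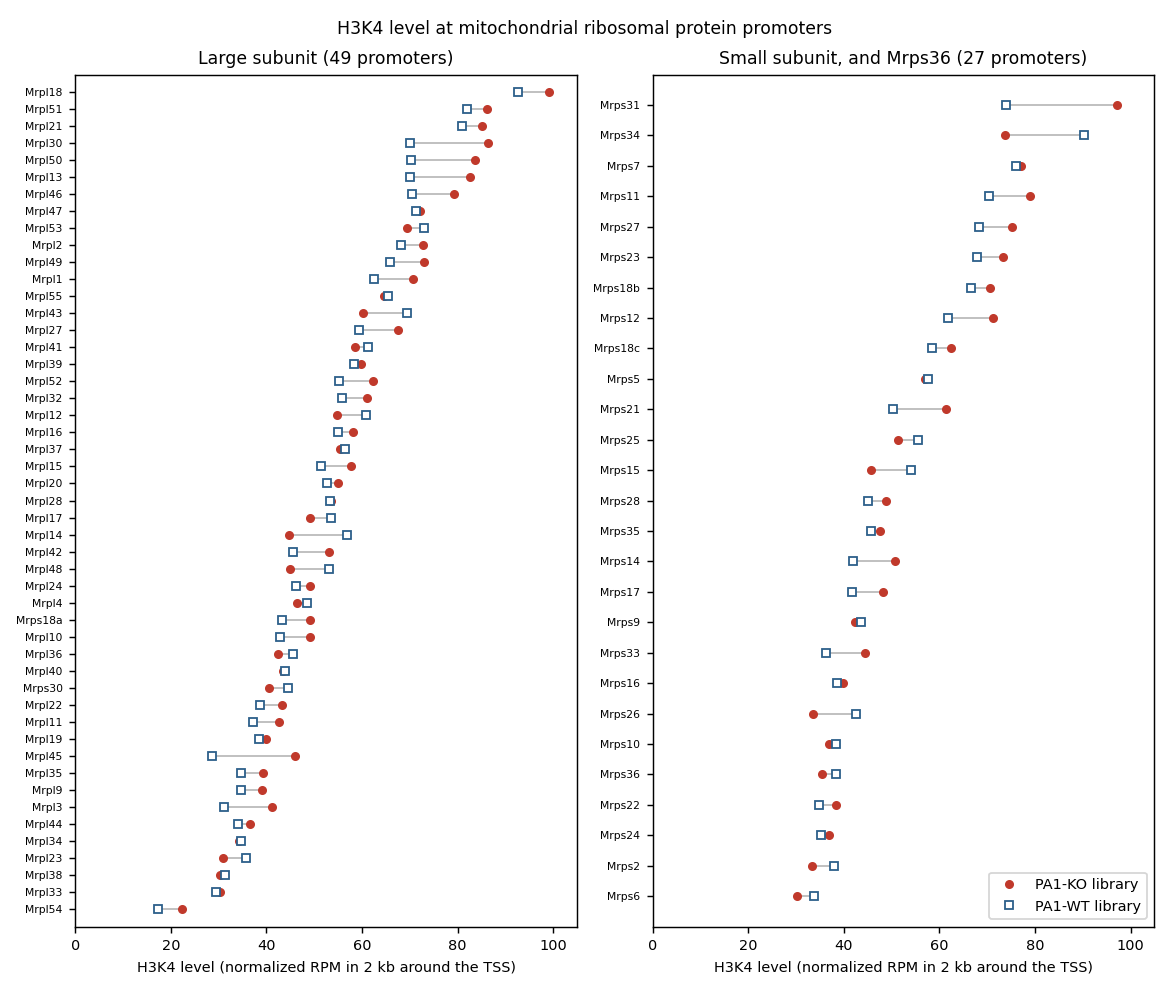
Level of H3K4 signal (normalized RPM within 1 kb of the TSS, x axis) at the 76 compared promoters, large subunit on the left and small subunit with Mrps36 on the right. Filled circles are the PA1-KO library and open squares the PA1-WT library, 1 library each, and most pairs lie close together, with wide gaps at Mrps31 (97.2 and 73.9), Mrpl45 (45.9 and 28.6), Mrps34 (73.8 and 90.3) and Mrpl30 (86.3 and 70.1).

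The members with the most reads belonged to both subunits. Mrpl18, a large subunit protein with a bacterial counterpart, had 501 reads in the PA1-KO library and 534 in the PA1-WT library, or 99.2 and 92.6 normalized RPM. Mrps31, a small subunit protein found only in mitochondria, had 491 PA1-KO reads and 426 PA1-WT reads, or 97.2 and 73.9 normalized RPM. Mrpl51 followed with 435 PA1-KO and 473 PA1-WT reads, and Mrpl21 with 430 PA1-KO and 467 PA1-WT reads. Mrps34, another mitochondria-specific small subunit protein and the fifth in order of reads, had 373 PA1-KO reads and 521 PA1-WT reads, or 73.8 and 90.3 normalized RPM. Of the 5 most read members it alone had a lower normalized level in the PA1-KO library, which held for this scaling only. With scaling to total reads, Mrpl18 (ratio of PA1-KO to PA1-WT 0.988), Mrpl51 (0.969) and Mrpl21 (0.970) were also below 1, with intervals that included 1. At the bottom, Mrpl54 had 113 PA1-KO reads and 100 PA1-WT reads, or 22.4 and 17.3 normalized RPM.

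Relative to the tested promoters in general, the genotypes differed little at these promoters. Promoters counted as changed had a PA1-KO to PA1-WT ratio of 1.5-fold or more in either direction and an interval that left out 1. Of the 76 members 1 was counted as higher, against 0.665% of the 12186 tested promoters, and 0 as lower, against 4.9%. These counts compare 2 libraries without a test, and at a background of 0.665% a single promoter says little about the members. The ratio was above 1 at 50 members and below 1 at 26, the interval lay wholly above 1 at 9 and wholly below 1 at 3, and the log2 ratio ran from -0.35 to 0.68. Over the 12186 tested promoters the ratio was above 1 at 6123 and below 1 at 6063, and the interval lay wholly above 1 at 1236 and wholly below 1 at 1389. The median log2 ratio of the members was 0.08, a ratio of 1.05, against 0.00 over all tested promoters. The scaling was fitted on these same tested promoters, which sets their median close to 0.00. A change shared by most promoters therefore cannot show at this scaling. The sign of the members' median depended on how the libraries were scaled. It was -0.039 with scaling to total reads and -0.18 with scaling to background, meaning reads over 5 kb from any TSS, settings in which the median of all tested promoters was -0.11 and -0.25. The ratio was then above 1 at 30 of the 76 members with total reads and at 8 with background. Over all tested promoters, 0.336% were then counted as higher and 7.77% as lower with total reads, and 0.164% and 13.4% with background. The interval of a single member spanned 1.28 to 1.75 times from its lower to its upper bound (median 1.41), so changes of a few percent at 1 gene were not detectable at this depth.

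**Figure D2:**
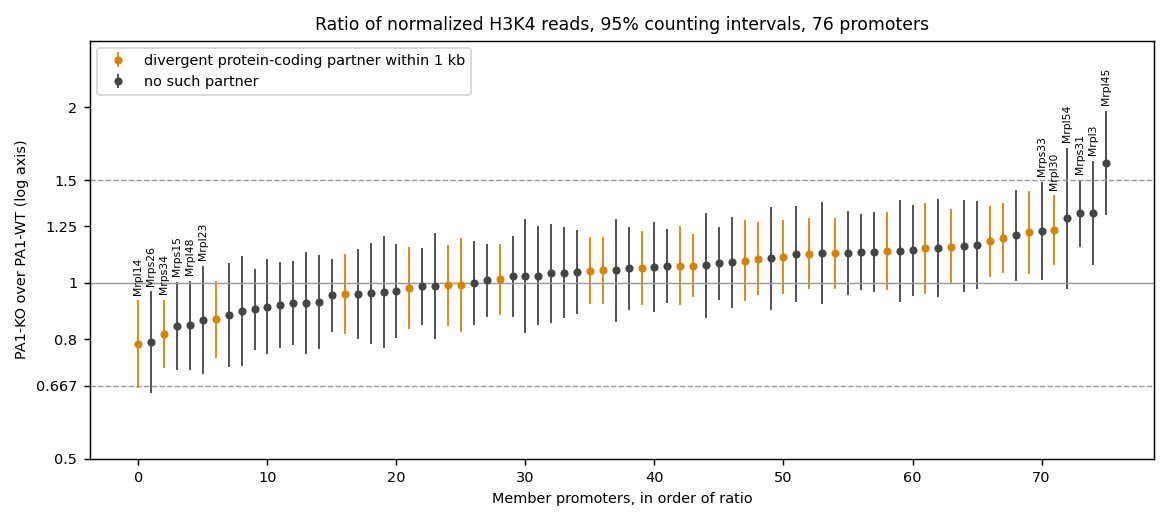
Ratio of PA1-KO to PA1-WT normalized reads (log axis) at the 76 compared promoters in rising order, with vertical lines for 95% counting intervals, orange where a protein-coding gene starts within 1 kb upstream on the opposite strand and dark grey elsewhere. Mrpl45 at 1.60 is the 1 point beyond the dashed lines at 1.5 and 0.667.

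Mrpl45 was the single member counted. It encodes a large subunit protein that, in human mitochondria, lies at the exit of the peptide tunnel and holds the ribosome to the inner membrane. Its promoter (chromosome 11, TSS 97177222) had 232 reads in the PA1-KO library and 165 in the PA1-WT library, or 45.9 and 28.6 normalized RPM. The ratio was 1.60 (1.31 to 1.97). Most of its reads lay downstream of the start, with 92 PA1-KO and 63 PA1-WT reads in the first 250 bases, 65 and 45 in the next 250, 31 and 29 in the third stretch, and 7 and 7 in the last. Upstream reads were fewer and also higher in the PA1-KO library, 37 against 21 in the PA1-WT library. The call did not hold under every scaling. The ratio was 1.48 with scaling to total reads, 1.34 with scaling to background and 1.35 with the genome-wide trend on GC content removed, all short of 1.5-fold. With the GC trend removed, 0.345% of all tested promoters were counted as higher and 3.74% as lower, and with the trend on level removed as well, 1.23% and 0.935%.

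The next members above 1 were of mixed kinds and none reached 1.5-fold. Mrpl3, a core large subunit protein shared with bacteria, had 208 PA1-KO reads and 180 PA1-WT reads, a ratio of 1.32 (1.08 to 1.62). Mrps31 had a ratio of 1.32 (1.15 to 1.501) on a larger number of reads. Mrpl54, the least read member of the tested set, had a ratio of 1.29 whose interval included 1 (0.977 to 1.71), and only 36.0% of the reads within 2 kb of its TSS lay within 1 kb. With windows of 2 kb either side its ratio was 0.973 (0.825 to 1.15). Mrpl30 had 436 PA1-KO and 404 PA1-WT reads (ratio 1.23, 1.07 to 1.41), and Mrps33 had 225 PA1-KO and 209 PA1-WT reads (ratio 1.23, 1.01 to 1.49). Raw reads at these promoters were already higher in the PA1-KO library, and the scaling raised each ratio further. With scaling to total reads, Mrps31 had a ratio of 1.21 (1.06 to 1.39). The intervals of Mrpl3, Mrpl54, Mrpl30 and Mrps33 then included 1.

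At the other end, Mrpl14 had the lowest ratio. It encodes a large subunit protein shared with bacteria that sits at the face joined to the small subunit. Its promoter (chromosome 17, TSS 45823271) had 226 reads in the PA1-KO library and 328 in the PA1-WT library, or 44.7 and 56.9 normalized RPM, with a ratio of 0.786 (0.661 to 0.934). Mrps26, a mitochondria-specific small subunit protein, had 170 PA1-KO reads and 245 PA1-WT reads and a ratio of 0.792 (0.647 to 0.967). Mrps34 had a ratio of 0.817 (0.713 to 0.935), the last whose interval lay below 1. Mrps15 (231 PA1-KO and 312 PA1-WT reads), Mrpl48 (227 and 306) and Mrpl23 (156 and 206) had ratios of 0.845, 0.847 and 0.864, each with an interval that reached 1 or beyond. With scaling to background, Mrpl14 at 0.659 and Mrps26 at 0.663 passed the 1.5-fold threshold as lower, where 13.4% of all tested promoters did.

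The subunits did not separate. The 49 large subunit genes, which include Mrps18a and Mrps30 by their place in the human ribosome, had a median log2 ratio of 0.08 and 1 promoter counted as higher, and the 26 small subunit genes had a median of 0.08 and 0 counted. Median levels were 53.4 normalized RPM in the PA1-KO library and 53.4 in the PA1-WT library for the large subunit, and 49.8 and 47.9 for the small subunit. Proteins shared with bacteria and those found only in mitochondria also gave close medians. The log2 medians were 0.09 for 30 shared and 0.07 for 19 mitochondria-specific large subunit genes, and 0.06 for 16 shared and 0.10 for 10 mitochondria-specific small subunit genes. Mrps36, since assigned to the alpha-ketoglutarate dehydrogenase complex and not to the ribosome, had 179 PA1-KO and 221 PA1-WT reads and a ratio of 0.924 (0.755 to 1.13).

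Within the large subunit, the genes for proteins at the base of the factor-binding stalk and along the peptide tunnel had unremarkable values. Mrpl12, the stalk protein, had 277 PA1-KO and 351 PA1-WT reads (ratio 0.901, 0.767 to 1.06), and Mrpl10, which anchors it, had 248 PA1-KO and 247 PA1-WT reads (ratio 1.15, 0.957 to 1.37). Mrpl11, also at the stalk base, had 215 PA1-KO and 214 PA1-WT reads (ratio 1.15, 0.944 to 1.39). All of these intervals included 1. Mrpl4 and Mrpl22, whose bacterial counterparts form the narrow part of the tunnel, had ratios of 0.958 and 1.12. In the small subunit, Mrps12, whose bacterial counterpart lies at the decoding site, had 360 PA1-KO and 356 PA1-WT reads (ratio 1.15, 0.994 to 1.34). Mrps5 and Mrps2 had ratios of 0.990 and 0.881, both with intervals that included 1.

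GC content ran alongside the ratio. The windows of the 76 members had 43.2% to 61.9% GC (median 50.1%), lower than all tested promoters (median 54.1%). All 5 members under 45% GC and all 14 between 45% and 47.5% had a ratio above 1. The number was 13 of 18 between 47.5% and 50%, 16 of 27 between 50% and 55%, 1 of 7 between 55% and 60% and 1 of 5 from 60% up. The same slope was present over all tested promoters, whose median log2 ratio was 0.27 under 45% GC and -0.21 from 60% up. At members the corresponding medians were 0.18 and -0.16. Spearman's rho between GC content and log2 ratio was -0.73 over the 76 members and -0.52 over 12185 tested promoters with reads in both libraries, points that share the same pair of libraries.

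Within classes of GC content, members lay near all tested promoters in some classes and farther off in others. The median log2 ratio of members was 0.22 against 0.17 for all tested promoters between 45% and 47.5% GC, 0.17 against 0.13 between 47.5% and 50%, and 0.04 against 0.04 between 50% and 55%. Between 55% and 60% it was -0.21 at 7 members against -0.08 for all tested promoters. With the trend on GC content removed, the median of the members was -0.019, so its sign also depended on that step. Mrpl45, at 43.6% GC, lay in the class under 45% where 9.58% of all tested promoters were counted as higher and 0.833% as lower. Mrpl35, the member with the lowest GC content at 43.2%, had 199 PA1-KO and 200 PA1-WT reads and a ratio of 1.14 (0.929 to 1.39). Mrpl14 and Mrpl48, the highest at 61.9% and 61.8%, both had ratios below 1. The part that base composition plays in these ratios was not tested.

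**Figure D3:**
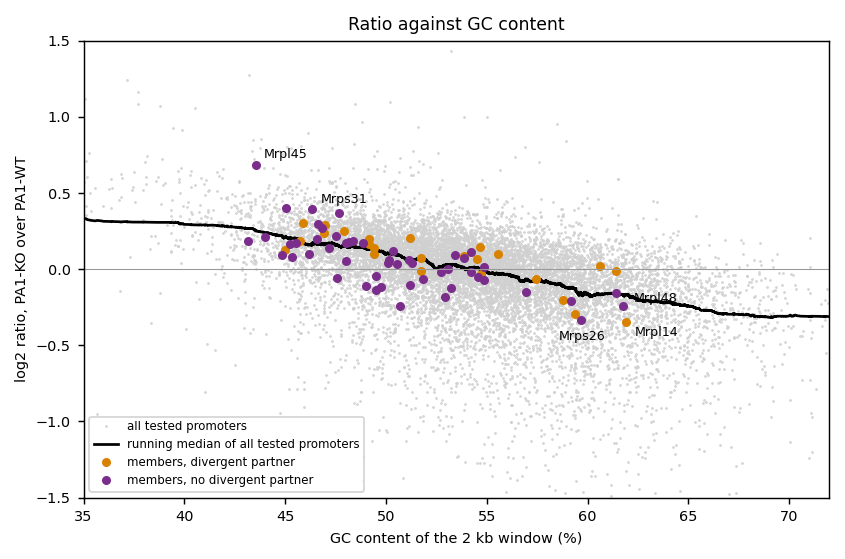
Log2 ratio of PA1-KO to PA1-WT reads (y axis) against GC content of the window (x axis, %) for members with a divergent partner (orange), members without one (purple) and all tested promoters (grey), with the running median of all tested promoters in black. Members follow the black line downward, Mrpl45 lies above it, and 56 grey promoters outside the axes and 1 without a PA1-KO read are not drawn.

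Shared promoters were common in the set. A member was called divergent when another protein-coding gene started within 1 kb upstream on the opposite strand, which held for 25 of the 76 tested members (32.9%). It held for 16.1% of the tested promoters and 9.36% of all protein-coding genes. The 25 members used 24 distinct promoters, since Mrps11 and Mrpl46 share 1. The distance between starts ran from 3 to 935 bp with a median of 108 bp. Counting partners of any gene type raised the number to 27, by adding Mrpl53 with Gm15605 at 66 bp and Mrpl55 with a noncoding RNA gene at 120 bp. Allowing the starts to overlap by up to 200 bp also gave 27, by adding Mrpl47 with Ndufb5, a complex I subunit gene, at 20 bp and Mrpl44 with Wdfy1 at 125 bp. Reads at a shared promoter cannot be assigned to the member or to its partner.

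Mrps11 and Mrpl46 join a small subunit and a large subunit gene in 1 promoter on chromosome 7. The Mrps11 window had 399 reads in the PA1-KO library and 406 in the PA1-WT library, and the Mrpl46 window, which covers nearly the same bases, had 400 and 406. The ratios were 1.12 (0.974 to 1.29) and 1.12 (0.977 to 1.29), so these are 1 measurement and not 2. Chromosome 7 also carries PA1 itself. Its 6 members had a median log2 ratio of 0.02, against -0.02 for the 891 tested promoters of that chromosome, and 0 of the 6 were counted either way. Of those 891 promoters, 4 were counted as higher and 40 as lower, so a count of 0 among 6 says little.

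Several partners also serve mitochondria or ribosomes. Mrps12 starts 171 bp from Sars2, and this shared promoter had 360 PA1-KO and 356 PA1-WT reads. Mrpl43 starts 116 bp from Peo1, which encodes the mitochondrial DNA helicase Twinkle, with 304 PA1-KO and 400 PA1-WT reads (ratio 0.867, 0.745 to 1.01). Mrps27 starts 108 bp from Ptcd2, a mitochondrial RNA-processing gene, with 380 PA1-KO and 394 PA1-WT reads (ratio 1.10, 0.954 to 1.27). These pairs, chosen for the partner's role after their values were seen, lay on both sides of 1. Mrpl49 starts 135 bp from Fau, whose product includes a protein of the cytosolic ribosome, with 369 PA1-KO and 380 PA1-WT reads (ratio 1.11, 0.958 to 1.28).

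The closest pairs had partners of other kinds. Mrps21 starts 3 bp from C920021L13Rik, listed as protein-coding in GENCODE vM1 and as a long noncoding RNA in the RefSeq table, and had 310 PA1-KO and 290 PA1-WT reads (ratio 1.22, 1.04 to 1.44). Mrps18c, 27 bp from the DNA helicase gene Helq, had 316 PA1-KO and 337 PA1-WT reads (ratio 1.07, 0.915 to 1.25). Mrps7, 32 bp from the clathrin adaptor gene Gga3, had 390 PA1-KO and 439 PA1-WT reads (ratio 1.01, 0.882 to 1.16). All of these shared promoters were well read and within 1.5-fold. Mrps18b, 45 bp from Ppp1r10, a regulator of protein phosphatase 1, had 357 PA1-KO and 384 PA1-WT reads (ratio 1.06, 0.916 to 1.23). Mrps34, 48 bp from the endonuclease subunit gene Eme2, was the one of these 5 with an interval below 1.

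The remaining pairs, in order of distance, were Mrpl13 with Mtbp at 59 bp, Mrpl14 with Tmem63b at 63 bp, Mrpl27 with Eme1 at 67 bp, Mrpl21 with Ighmbp2 at 83 bp and Mrpl50 with Zfp189 at 83 bp. Mrpl30 with Mitd1 followed at 122 bp, Mrpl18 with Tcp1 at 127 bp, Mrpl37 with Cyb5rl at 168 bp, Mrpl10 with Lrrc46 at 188 bp and Mrpl32 with Psma2, a proteasome subunit gene, at 217 bp. The widest were Mrpl40 with the histone chaperone gene Hira at 270 bp, Mrps5 with Zfp661 at 325 bp, Mrpl51 with the condensin gene Ncapd2 at 570 bp and Mrpl41 with Pnpla7 at 935 bp. Across these pairs, Mrpl50 with 423 PA1-KO and 405 PA1-WT reads (ratio 1.19, 1.04 to 1.37) and Mrpl13 with 417 and 404 (ratio 1.18, 1.02 to 1.35) had intervals above 1, as did Mrpl30. Mrpl14 had one below 1.

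Divergent members had higher levels than the others, a difference that was not tested. Their median was 71.2 normalized RPM in the PA1-KO library and 66.6 in the PA1-WT library, against 45.7 and 43.7 for the 51 other tested members. The median log2 ratio was 0.10 at divergent members and 0.06 at the others, and the 1 counted member, Mrpl45, had no partner. Over all tested promoters the corresponding log2 medians were 0.05 with a divergent partner and -0.01 without. Levels differed in the same direction there. Their medians were 61.2 (PA1-KO) and 58.8 (PA1-WT) normalized RPM with a divergent partner, and 39.4 and 39.2 without.

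The shape of the signal followed the gene arrangement in both libraries. The share of window reads upstream of the TSS had a median of 44.4% in the PA1-KO library and 45.7% in the PA1-WT library at divergent members, and 27.0% and 23.8% at the others. Over all tested promoters the medians were 47.9% (PA1-KO) and 48.6% (PA1-WT) with a divergent partner, and 34.0% and 33.2% without. None of the 25 divergent members had under 20% upstream in both libraries, whereas 20 of the 51 others did. Mrpl42 had the lowest share, 0.746% in the PA1-KO library and 2.28% in the PA1-WT library. With the share of each promoter averaged over the libraries, the gap between the medians was 17.9 percentage points, and it was 8.86 with windows of 500 bp either side and 27.9 with the most upstream annotated TSS. Shares in the libraries matched closely from promoter to promoter (Spearman's rho 0.97 over 76 promoters that share the same 2 libraries).

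Among members without a protein-coding partner, 14 still had over 40% of their reads upstream in at least 1 library. Some have another start nearby: Mrpl47 and Ndufb5 overlap by 20 bp, Mrpl53 and Mrpl55 have the noncoding neighbours given above, and Mrps26 faces a noncoding RNA gene that starts 7 bp inside it. Mrps26 had 51.2% of its reads upstream in the PA1-KO library and 38.0% in the PA1-WT library. Mrps6 starts 2 bp from Slc5a3 on the same strand, and Mrpl48 lies 304 bp from the nearest start of Rab6 on the other strand. Others have a more upstream start of their own in the annotation, at 310 bp for Mrps10, 414 bp for Mrpl12, 512 bp for Mrpl39 and 546 bp for Mrps36. Mrpl2, Mrpl33 and Mrpl52 have no such start within 1 kb, and that of Mrpl15 lies at 47 bp. A distant own start did not always go with a share over 40%. Mrpl1 has one at 651 bp, with 37.0% upstream in the PA1-KO library and 36.6% in the PA1-WT library. Mrps36 had the highest share of any member in both libraries, 63.1% in the PA1-KO library and 73.3% in the PA1-WT library.

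**Figure D4:**
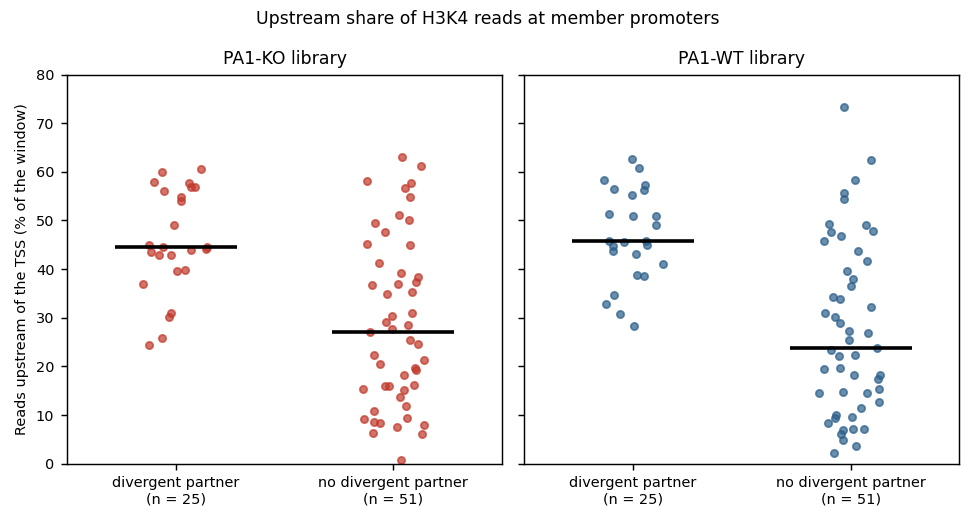
Share of window reads upstream of the TSS (y axis, %) in the PA1-KO library (left) and the PA1-WT library (right), with 1 point per member promoter and a bar at the median of each group. Divergent members (n = 25) all lie above 24% in both panels, while the 51 others spread from near 0 to above 60%.

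Averaged along the gene, member promoters showed the depleted start flanked by positioned nucleosomes that is usual for active genes. At divergent members the first peak, 100 to 149 bp downstream of the TSS, averaged 3.14 normalized RPM per 50 bp in the PA1-KO library and 3.29 in the PA1-WT library. The dip at the start was 0.325 in the PA1-KO library and 0.486 in the PA1-WT library. Members without a partner had a peak at the same place, 2.61 in the PA1-KO library and 2.96 in the PA1-WT library, and little signal far upstream. The dip and the first peak of the members lay at the same positions in both libraries. The highest upstream point of divergent members did not, lying at -600 to -551 bp in the PA1-KO library and at -400 to -351 bp in the PA1-WT library.

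With the main scaling, the PA1-KO signal was lower close to the start and higher away from it. Another scaling multiplies all of these ratios by a common factor. The side of 1 on which a stretch lies therefore depends on the scaling, while the order of the stretches does not. Summed over 75 promoters, with Mrps11 left out so that its promoter counts once, the first 250 bp downstream had 3359 reads in the PA1-KO library and 4168 in the PA1-WT library, a ratio of 0.920 (0.879 to 0.963). The stretch of 250 to 499 bp had a ratio of 1.06 (1.02 to 1.10). From 500 to 999 bp the sums were 5420 PA1-KO and 5489 PA1-WT reads, a ratio of 1.13 (1.09 to 1.17). Upstream, the ratio was 0.987 (0.947 to 1.03) within 500 bp and 1.15 (1.10 to 1.21) beyond. All 12186 tested promoters were likewise lowest in the first 250 bp (0.876) and above 1 from 500 to 999 bp downstream (1.10) and in the far upstream stretch (1.09). At this scaling they lay on the other side of 1 from 250 to 499 bp, at 0.980 (0.977 to 0.984). Within 500 bp upstream they had 0.983. The difference between members and all tested promoters was not tested. Divergent members and the others gave 0.962 (0.888 to 1.04) and 0.900 (0.851 to 0.951) in the first 250 bp, and 1.16 (1.09 to 1.23) and 1.11 (1.06 to 1.16) in the last stretch. With 1 library each, the genotype cannot be told apart from other differences between the preparations.

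**Figure D5:**
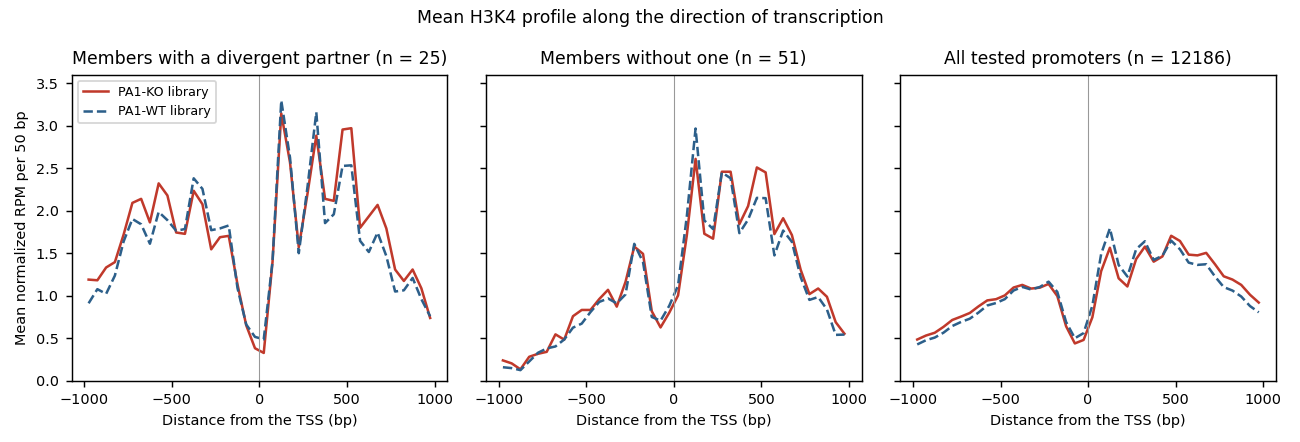
Mean H3K4 profile (normalized RPM per 50 bp, y axis) by distance from the TSS along the direction of transcription (x axis, bp) for divergent members, other members and all tested promoters, PA1-KO as a solid red line and PA1-WT as a dashed blue line. At the scaling used, the PA1-WT line is higher at the first peak (3.29 against 3.14 at divergent members). Downstream, the PA1-KO line is higher from 450 bp on, except in the last 50 bp at divergent members (0.736 against 0.756 in PA1-WT).

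Alternative start sites added little signal. Of the 25 members with an annotated start over 2 kb from the one used, 4 had 50 or more reads around it. Mrpl33 was divided almost evenly, with 153 PA1-KO and 170 PA1-WT reads at the start used and 154 PA1-KO and 169 PA1-WT reads at another 17078 bp away, so the choice between them was arbitrary. Mrpl48 had 141 PA1-KO and 148 PA1-WT reads at its second site, a ratio of 1.09 (0.857 to 1.38). The other 2 had few reads, more of them in the PA1-KO library. At Mrpl37, a site 2050 bp from the main start had 52 PA1-KO reads and 14 PA1-WT reads, a ratio of 4.24 (2.31 to 8.28), while the main promoter had 280 and 326 (ratio 0.980, 0.833 to 1.15). No peak stood out at this second site. From 1000 to 2999 bp downstream of the main start, each 250 bp held 3 to 9 PA1-KO and 0 to 5 PA1-WT reads. At Mrps5, a site 3022 bp away had 38 PA1-KO reads and 21 PA1-WT reads, a ratio of 2.07 (1.18 to 3.70). These 2 were singled out after their values were seen. Of 989 such second sites in the annotation with 50 or more reads, 4.65% were counted as higher by the same rule and 8.39% as lower.

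Sequence matches in the promoters were counted on both strands in the 300 bases from 250 before to 49 after the TSS. CCGGAAG, the core bound by ETS factors such as GABPA, occurred in 29 of the 76 tested members (38.2%) and in 18.7% of all tested promoters. AAGATGGC, a YY1 motif, occurred in 13 (17.1%) against 5.33%, and GCATGCGC, the core of the NRF1 motif, in 8 (10.5%) against 5.19%. These factors are known for their sites in genes of mitochondrial proteins. Any of the 3 motifs was present in 42 of the 76 members, and the matching share of all tested promoters was not computed. Among the divergent members 8 of 25 (32.0%) had the YY1 motif and 11 (44.0%) the ETS core. Shares over all divergent promoters were not computed. The YY1 matches of Mrpl46 and Mrps11 are the same bases, so a single site enters these counts for both members. In tested promoters with 45% to 55% GC in the window, the shares were 23.5% for the ETS core, 5.91% for YY1 and 6.16% for NRF1.

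The other motifs had shares closer to those of all tested promoters. CACGTG, the E-box bound by MYC, occurred in 6 tested members (7.89%) against 9.97% of all tested promoters, and CCAATC, bound by NF-Y, in 13 (17.1%) against 19.1%. GGGGCGGGG, bound by SP and KLF factors, occurred in 14 (18.4%) against 22.7%, and against 16.5% of tested promoters with 45% to 55% GC, so its direction depended on the promoters compared. TATAAA occurred in 5 (6.58%) against 5.03%, TGACGTCA, bound by CREB, in 2 (2.63%) against 3.34%, and the ZNF143 motif in 0 against 0.583%. A match is a description of the letters and not evidence of binding, and a base may belong to matches of more than 1 motif.

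The sequences printed above show these arrangements. The promoter of Mrpl46 and Mrps11 holds AAGATGGC from 35 bases after the Mrpl46 start and TATAAA from 154 bases before it. The Mrps12 promoter holds the YY1 motif from base -200, 3 NF-Y matches and an ETS core at the start itself. The Mrpl18 promoter holds an ETS core from base -129 and an NF-Y match at the start. The Mrpl45 stretch holds none of the motifs, though its 300 bases have 65.7% GC in a window of 43.6%. The Mrpl14 stretch holds 1 SP and KLF match from base -159 and has 76.0% GC.

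Other genes of mitochondrial translation had 0 promoters counted either way, against 0.665% counted as higher and 4.9% as lower over all tested promoters. At these shares a count of 0 in lists this short says little. The 7 mitoribosome genes with other names had a median log2 ratio of 0.18, and their log2 ratios ran from -0.22 at Aurkaip1 to 0.37 at Ptcd3. The 13 translation factors had a median log2 ratio of 0.11, from -0.08 at the release factor gene Mtrf1l to 0.33 at Mtrf1. The 22 mitochondrial aminoacyl-tRNA synthetase genes, with their accessory subunits, had a median log2 ratio of 0.09, from -0.33 at Aars2 to 0.26 at Wars2. The 22 ribosome assembly factors had a median log2 ratio of 0.03, from -0.25 at Wbscr16 to 0.42 at Fastkd2, whose plain ratio was 1.34 (1.11 to 1.62).

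Gene sets with related functions had median log2 ratios near that of the members. The cytosolic ribosomal protein genes had 77 of 134 promoters tested, 0 counted as higher and 0 as lower, and a median log2 ratio of 0.12. Their median levels were 62.5 normalized RPM in the PA1-KO library and 58.6 in the PA1-WT library, and 16.9% were divergent. The oxidative phosphorylation genes had 84 of 92 tested, 0 counted either way, a median log2 ratio of 0.11, and levels of 57.0 and 52.1 normalized RPM. Their divergent share, 32.1%, was close to the 32.9% of the mitochondrial ribosomal protein genes. Over all tested promoters, 0.665% were counted as higher and 4.9% as lower. These differences between sets were not tested.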

How the data were processed

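Per the labels' protocols, native chromatin was cut with MNase, precipitated, amplified for 18 PCR cycles, selected near 220 bp and sequenced for 36 cycles. The deposited files list mapped read positions, 1 line of 25 bases per read, and their deposited score column is 0 throughout and was not used. mm9 and SICER appear in the submitters' processing notes without a role, and the name of the aligner was not given in the sources used here. No position and strand repeats, so strong sites are slightly compressed, and members filled 2.50% to 13.3% of their positions.

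Read starts were moved 75 bp and counted within 1 kb of the most read GENCODE vM1 TSS (Python 3.11.15, SciPy 1.17.1). Scaling used TMM factors of 0.961 (PA1-KO) and 1.04 (PA1-WT), fitted on the tested promoters. Ratios carry exact Clopper-Pearson 95% intervals for counting error only, because there is 1 library per genotype. Amplified reads carry no molecular identifiers and so are not independent molecules, which these intervals do not allow for. The code was tested on simulated data. Members, lists and comparisons were chosen with earlier results of these data known. Named genes were the counted members, the 6 highest and 6 lowest ratios, the 5 most read, the untested member, the 2 lowest and 2 highest in GC, divergent partners, and the extremes of other lists. Further members were named for their roles after values were seen. 1 list gene without a mitoribosomal annotation in the RefSeq table was left out, and Slirp, Noa1 and Malsu1 were not matched. Alternatives changed the scaling, window, shift, minimum, TSS choice and trends on GC and level.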

Additional observations from a re-analysis of the deposited data

Results flagged for a closer look

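Reads on the mitochondrial genome lie outside the promoter comparison, and they were more frequent in the PA1-KO library. There were 406 such reads in the PA1-KO library and 74 in the PA1-WT library, or 77.2 and 13.4 per 1000000 reads. The ratio was 5.78 (4.50 to 7.51) by total reads. Mitochondrial DNA carries no histones. With 1 library each, the genotype cannot be told apart from other differences between the preparations.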

How the results depend on the processing

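No paired analysis was possible because there is 1 library per genotype and the labels give no replicate numbers. The number of members counted as higher was 1 with TMM scaling and 0 with scaling to total reads, scaling to background, the GC trend removed, or the GC and level trends removed. The number counted as lower was 2 with scaling to background and 0 otherwise. The median log2 ratio, 0.08 as reported, was -0.039 with total reads, -0.18 with background, 0.11 with 500 bp windows, 0.049 with windows of 2 kb either side, -0.019 without the GC trend, 0.025 without the level trend and -0.046 without both. Relative to all tested promoters it was 0.11 with 500 bp windows, -0.021 without the GC trend, 0.023 without the level trend and -0.047 without both. Over all tested promoters 81 were counted as higher and 597 as lower with TMM, 41 and 947 with total reads, and 20 and 1635 with background. The log2 level of members above all tested promoters, 0.26, was 0.47 with 500 bp windows and 0.20 with 2 kb. The gap in upstream share averaged over the libraries, 17.9 points, was 8.86 with 500 bp windows and 27.9 with the most 5′ TSS, a setting added after seeing the data, as was leaving out chromosome 7. Of 260 ratios of 22 named members under alternatives, 242 stayed within the interval first given and 18 fell below it, 15 of them with background scaling. Depth limits single members to changes beyond their intervals, and missing replicates leave the spread between cultures unknown.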
